A study of Zea mays with 36 samples.

Results

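Starch is built in plastids from ADP-glucose. ADP-glucose pyrophosphorylase, an enzyme of large and small subunits, makes this sugar nucleotide, starch synthases add its glucose to growing chains, branching enzymes introduce the branch points of amylopectin, and debranching enzymes trim them. Amylases take part in breakdown, with beta-amylase releasing maltose from chain ends. In leaves much of the starch is stored by day and used by night, and the best known maize starch mutants were found through their kernels.

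The genes described here are ae1 (amylose-extender1, starch branching enzyme IIb), BMY1 (a beta-amylase), AGPLS3 (named as a large subunit of ADP-glucose pyrophosphorylase) and Agp2 (a name for ADP-glucose pyrophosphorylase genes). Members were all spots whose platform annotation carried one of these symbols or a synonym of it, whatever their ratios. There were 15 such probes of 33280 spots, and 14 of them were tested. They stand for 5 of the 740 genes named on the slides, because the name Agp2 belonged to 2 of them. One is Agpsemzm (Entrez gene 542072), known as a small subunit of the enzyme expressed in the embryo. The other is LOC542737, listed with the symbol AGP2. No gene title was at hand to check that LOC542737 encodes the same enzyme, so it is described apart and given no role. ae1, AGPLS3 and Agpsemzm had 1 probe each, LOC542737 had 9 and BMY1 had 3, of which 1 was not tested.

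RNA came from the shoot apical meristem (SAM), the group of stem cells at the shoot tip, taken by laser capture with the P0 and P1 leaf primordia, and from the whole above-ground part of seedlings, in both cases from inbred line B73 at 14 days. Each of 6 biological replicates set RNA of 6 to 10 meristems against RNA of 6 pooled seedlings, which contain meristems too. Each pair was hybridised to 1 slide of each of 2 cDNA slide sets with different clones, with SAM RNA in Cy3 on 3 slides per set and in Cy5 on the other 3, and 3 scans per slide, called low, medium and high after their laser power and gain. SAM and seedling RNA went through unlike extraction methods, which cannot be told apart from tissue. In tissue RNA, fewer cells of a type and less RNA per cell cannot be told apart either.

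Values are log2 ratios of the channels, relative to the median probe of a scan and averaged over the scans of a slide. Which tissue is the numerator is not given in the sources used here. Of 8 leaf genes on set 1 (photosystem, Rubisco and C4 genes such as psad1 and ssu1), 7 passed the test on the negative side. PSBQ at 0.26 did not pass. On set 2 all 7 measured leaf genes were negative, and the list medians were −5.72 and −6.02. The 5 meristem genes measured in each set (kn1, rs2, TE1 and lg3, with lbl1 on set 1 and fea2 on set 2) were all positive, with medians of 1.67 and 1.95. The lowest was kn1 on set 1, at 0.30 with 5 of 6 slides above 0. Ratios above 0 are therefore described as lying on the SAM side and those below 0 on the seedling side. This direction is likely, not stated by the authors. The test was limma with a term for the dye, adjusted by Benjamini-Hochberg over all probes of a set, and a probe passed at an adjusted p under 0.05. For the leaf and meristem genes it was run on gene means and adjusted over the named genes. Of the named genes, 72.3% passed on set 1 and 73.6% on set 2. Over all probes, the same-dye slides correlated at 0.857 to 0.903 on set 1 and 0.852 to 0.901 on set 2, against 0.701 to 0.861 and 0.597 to 0.745 for slides of opposite dye orientation. A label of the high scan of replicate 4 on set 1 gives seedling as the source of either dye. Its sample name has SAM in Cy5, and that was followed.

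The starch genes lay far apart. The branching enzyme gene ae1 was 27.5-fold higher on the SAM side. The beta-amylase gene BMY1 was 866-fold higher on the seedling side of set 1 and 30.9-fold on that of set 2. These sizes varied with the scan, and whether a channel was near its lowest readable value was not tested. AGPLS3 and Agpsemzm, of the step that makes ADP-glucose, lay within 0.3 of 0 on the log2 scale and did not pass. Of the 13 member probes on set 1, 5 passed toward SAM, 1 passed toward seedling and 7 did not pass. LOC542737 alone held 9 of these probes and 4 of the 5 calls toward SAM, and the remaining call was ae1. As a mean of its probes LOC542737 did not pass (0.26, limma adjusted p = 0.162 over the named genes). Among all 18302 probes tested on set 1, the share that passed was 62.5%, with 31.5% toward SAM and 31.0% toward seedling. The share of member probes that passed was thus not above that of the set. The single member probe tested on set 2 passed on the seedling side, where 64.6% of 12027 probes passed and 31.2% on that side. The plot of slide values shows where the genes differ and where dye orientations separate.

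**Figure D1:**
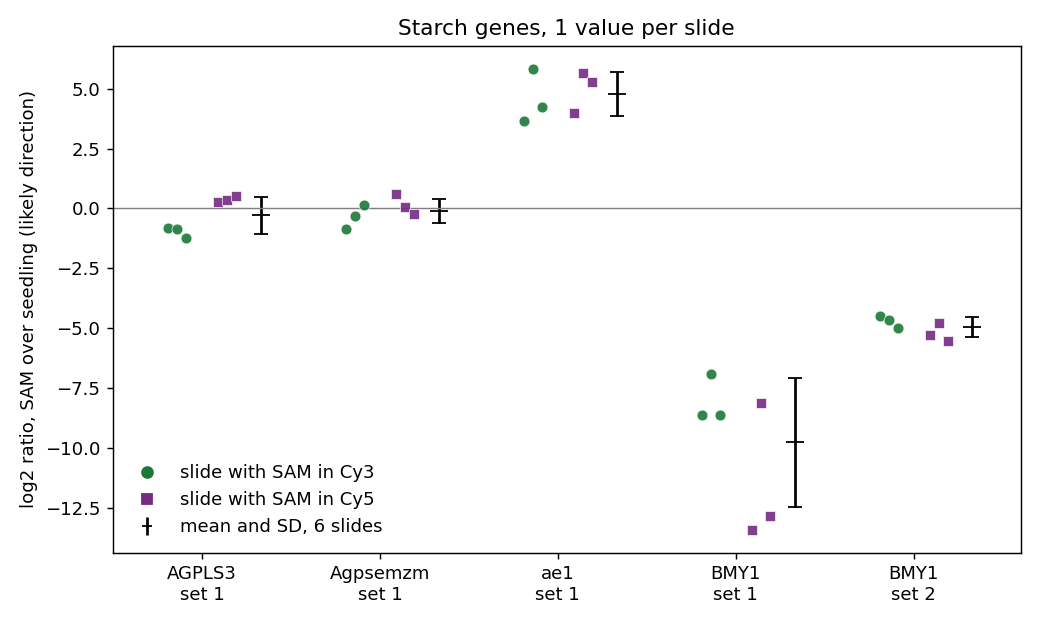
Each point is the log2 ratio of SAM over seedling RNA (vertical axis, likely direction) on 1 slide, for AGPLS3, Agpsemzm, ae1 and BMY1 on slide set 1 and BMY1 on slide set 2. Circles are slides with SAM in Cy3, squares slides with SAM in Cy5, and bars the mean and SD of 6 slides. All 6 ae1 values lie above 3.5 and all 12 BMY1 values below −4.4, while AGPLS3 lies below 0 with SAM in Cy3 and above 0 with SAM in Cy5.

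ADP-glucose pyrophosphorylase catalyses the first committed step of starch synthesis. AGPLS3 gave log2 ratios of −0.82, −0.86 and −1.22 with SAM in Cy3 (replicates 1, 3 and 5), against 0.29, 0.36 and 0.53 with SAM in Cy5 (replicates 2, 4 and 6). The 2 dye orientations did not overlap and lay on opposite sides of 0. The mean over 6 slides was −0.29 ± 0.76 (SD, n = 6, 95% interval −0.56 to −0.01, limma adjusted p = 0.0667), so AGPLS3 did not pass. Its dye term, the Cy3 mean minus the mean of both orientations, was −0.68 (limma adjusted p = 0.0332). A dye term passed in 12.7% of all probes of the set, and 8.87% had all slides of one orientation above 0 and all of the other below. On set 2 these shares were 8.41% and 8.81%. The call depended on the setting. AGPLS3 passed on the seedling side when slides were scaled to the same spread (limma adjusted p = 0.0482) and in the high scan alone (adjusted p = 0.0360). In a separate limma fit on gene means, adjusted over named genes, it passed too (adjusted p = 0.0354). That fit passed 72.3% of the 582 named genes of set 1 and 73.6% of the 455 of set 2. The standard error of AGPLS3 was 0.097 there, against 0.116 in the fit on probes. On Cy3 slides alone AGPLS3 passed as well (−0.97, adjusted p = 0.0103). On Cy5 slides alone it lay at 0.39 (limma adjusted p = 0.133).

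For Agpsemzm, the small subunit gene, slides with SAM in Cy3 gave −0.87, −0.32 and 0.14, against 0.60, 0.06 and −0.22 with SAM in Cy5. Slides lay on either side of 0 in both orientations, and the orientations overlapped. The mean was −0.10 ± 0.49 (SD, n = 6, 95% interval −0.52 to 0.32, limma adjusted p = 0.640). The interval allows a difference of up to 0.52 on the log2 scale toward seedling and 0.32 toward SAM. Its dye term was −0.25 and did not pass (adjusted p = 0.346).

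LOC542737, the gene listed as AGP2, had more probes than any other member. Of all probes of set 1, 31.5% passed toward SAM and 31.0% toward seedling. Of the 9 LOC542737 probes there, 4 passed toward SAM, and the other 5 missed the threshold. Their median was 0.51, and they ran between −1.44 and 0.90. The probe with the highest ratio, probe 11787, gave 0.74, 1.23 and 0.56 with SAM in Cy3, against 1.39, 0.78 and 0.72 with SAM in Cy5. All 6 slides lay on the SAM side and the orientations overlapped, with a mean of 0.90 ± 0.33 (SD, n = 6, limma adjusted p = 0.00188). Probe 12538 averaged 0.74 ± 0.36 (limma adjusted p = 0.00133) and probe 6659 averaged 0.65 ± 0.41 (adjusted p = 0.00973), each with 6 of 6 slides on the SAM side. On Cy5 slides alone the calls of probe 12538 (0.45, adjusted p = 0.100) and probe 6659 (0.43, adjusted p = 0.221) were lost. The 4th, probe 11241 at 0.59 ± 0.51 (adjusted p = 0.0320), had 5 of 6 slides on that side, and it lost the call in 9 of 19 alternatives.

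Another pair of LOC542737 probes varied with the dye. Probe 2370 gave 0.05, 1.24 and 1.03 with SAM in Cy3, against −4.88, −0.97 and −5.12 with SAM in Cy5. All Cy3 slides lay above 0 and all Cy5 slides below, a split by dye found in 8.87% of all probes of the set. The largest distances from 0 were on replicates 2 and 6. The mean was −1.44 ± 2.87 (SD, n = 6, limma adjusted p = 0.0543) and the dye term 2.22 (adjusted p = 0.0465). The probe passed on the seedling side without replicate 4 (−2.11, adjusted p = 0.000529), in the medium scan alone (adjusted p = 0.0416), with slides scaled to the same spread (adjusted p = 0.0470) and on Cy5 slides alone (−3.66, adjusted p = 0.0286). Probe 7422 gave 1.07, 2.14 and 1.71 with SAM in Cy3, against −0.87, 0.20 and −2.32 with SAM in Cy5. Its mean was 0.32 ± 1.69 (limma adjusted p = 0.416) and its dye term 1.32 (adjusted p = 0.0458). A dye term passed in 12.7% of all probes of the set. Probe 7422 passed on the SAM side on Cy3 slides alone (1.64, adjusted p = 0.00596). The other 3 probes that did not pass were probe 2498 at 0.18 ± 0.36, probe 12434 at 0.51 ± 0.90 and probe 12526 at −0.11 ± 0.48. Of these probe 12434 passed on the SAM side on Cy3 slides alone (1.04, adjusted p = 0.0353) and without replicate 6 (0.75, adjusted p = 0.0272). As the mean of its probes on each slide, LOC542737 lay at 0.26 ± 0.67 (SD, n = 6, limma adjusted p = 0.162 over the named genes). The plot of its probes shows the 9 of them side by side.

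**Figure D2:**
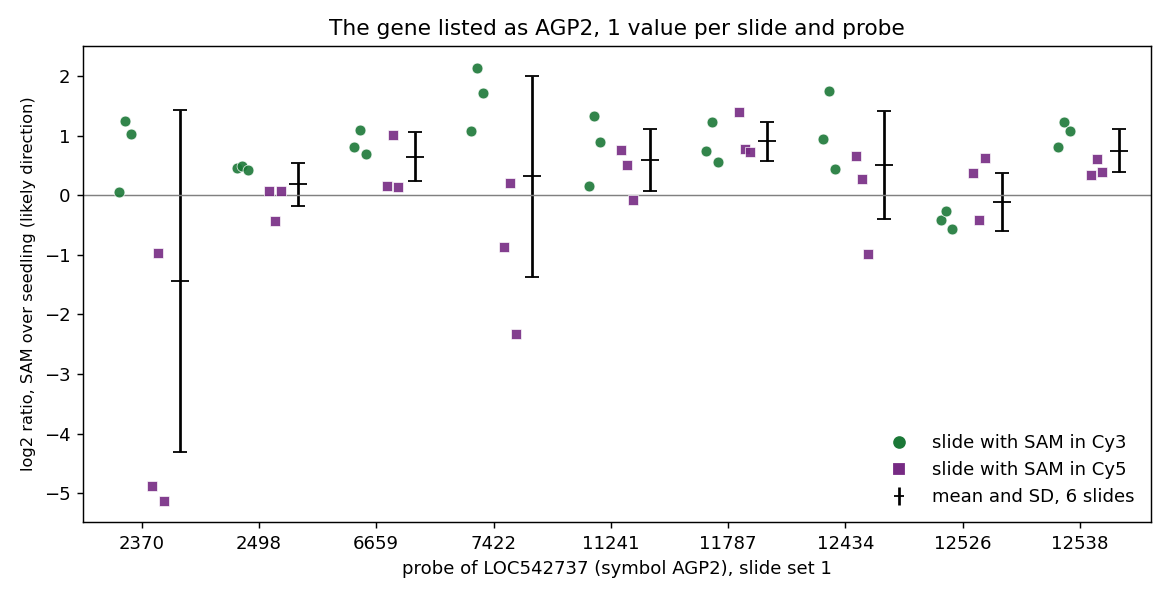
Log2 ratio of SAM over seedling RNA (vertical axis, likely direction) on each slide for the 9 probes of LOC542737 on slide set 1, which run along the horizontal axis by number. Circles are slides with SAM in Cy3, squares slides with SAM in Cy5, and bars the mean and SD of 6 slides. Probes 2370 and 7422 have the widest spread and the orientations set apart, while probes 11787, 12538 and 6659 have all slides above 0.

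Branching enzyme IIb, encoded by ae1, makes the branches of amylopectin, and its loss in kernels gives starch with a high amylose content. On slide set 1 the ae1 probe gave 3.66, 5.83 and 4.25 with SAM in Cy3, against 3.99, 5.66 and 5.30 with SAM in Cy5. All 6 slides lay on the SAM side and the dye orientations overlapped. Its mean of 4.78 ± 0.93 (SD, n = 6, 95% interval 3.99 to 5.57) passed with a limma adjusted p of 3.73e-05, and it ranked 89 from the SAM end of 18302 probes. The same sign on all 6 slides occurred in 50.3% of the set's probes. The dye term was −0.20 (adjusted p = 0.685), with means of 4.58 for SAM in Cy3 and 4.98 for SAM in Cy5. No ae1 probe was found on set 2, so its value is that of 1 clone.

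The size of the ae1 difference varied with the scan, while its side did not. The low scan gave 7.09 ± 1.02 (SD, n = 6), the medium scan 3.69 ± 1.21 and the high scan 3.56 ± 1.11. These are folds of 137, 12.9 and 11.8. The low scan lay farther from 0 than the high scan on 6 of 6 slides, as in 16.0% of all probes of the set. Scan values of ae1 ranged between 6.19 and 8.44 in the low scan and between 1.95 and 4.62 in the high scan. Ratios of weak spots can be set by a channel at its lowest readable value. Between 764 and 1494 spots per low scan shared the most frequent value of the scan, as spots with both channels at such a floor would, against 29 to 163 per high scan. No ae1 scan was at that value. Whether 1 channel of ae1 was near its floor cannot be read from a ratio and was not tested.

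**Figure D3:**
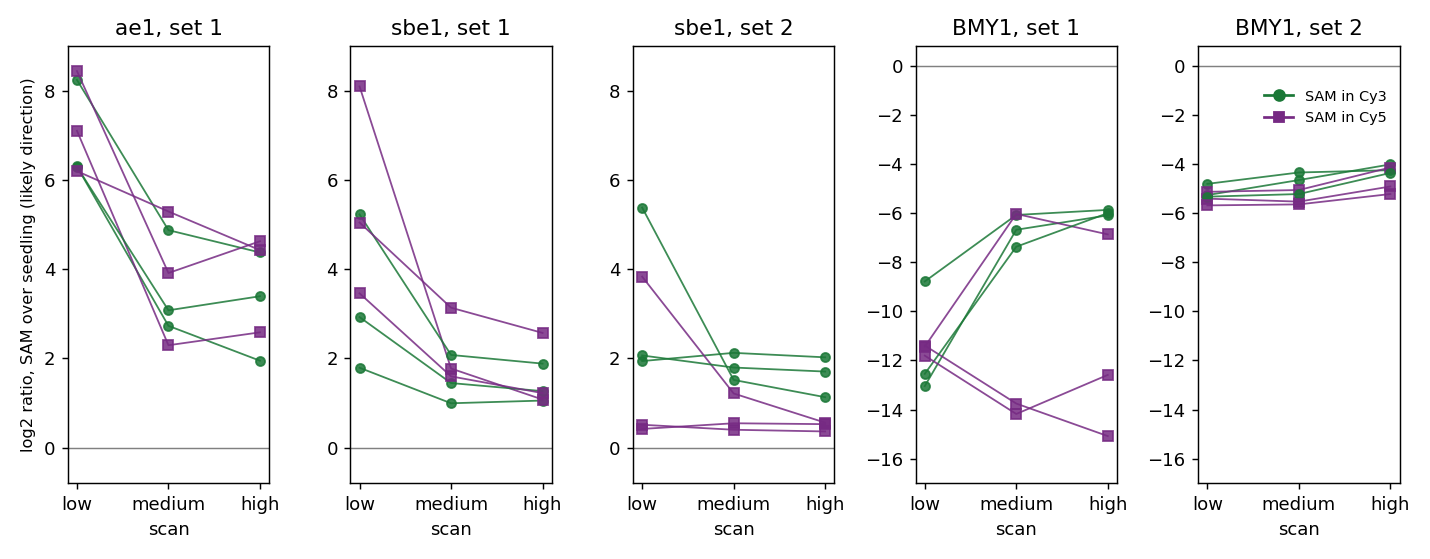
Log2 ratio of SAM over seedling RNA (vertical axis, likely direction) in the low, medium and high scan of each slide for ae1, sbe1 and BMY1. Each line is 1 slide, circles with SAM in Cy3 and squares with SAM in Cy5, and the BMY1 panels have their own vertical range, below 0. The ratios of ae1, of sbe1 on set 1 and of BMY1 on set 2 lie closer to 0 in the high scan than in the low scan on all 6 slides, and replicates 2 and 6 of BMY1 on set 1 lie apart from the other slides in the medium and high scans but not in the low scan.

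BMY1 encodes a beta-amylase, which cuts maltose units from the ends of glucan chains. On set 1 its probe gave −8.61, −6.91 and −8.64 with SAM in Cy3, against −13.41, −8.12 and −12.86 with SAM in Cy5. All 6 slides lay on the seedling side, with replicates 2 and 6 the farthest from 0, and the orientations overlapped. The mean was −9.76 ± 2.69 (SD, n = 6, 95% interval −11.40 to −8.11, limma adjusted p = 3.97e-05), at rank 20 from the seedling end. The spread over slides was wide, larger than that of 99.2% of the set's probes. The dye term was 1.70 (adjusted p = 0.130), with means of −8.05 for SAM in Cy3 and −11.46 for SAM in Cy5. In the high scan replicates 2 and 6 lay at −15.08 and −12.59, against −6.87 to −5.87 on the other 4 slides. In the low scan the 6 slides lay between −13.05 and −8.79. The scans gave folds of 2903 (low), 519 (medium) and 431 (high). No scan of this probe was at the most frequent value of its scan. Whether its SAM channel was near its lowest readable value cannot be read from a ratio and was not tested. The size of the fold is therefore uncertain. With single replicates left out the mean ran between −10.59 (without replicate 4) and −9.27 (without replicate 2), and BMY1 passed each time.

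The second slide set carried another BMY1 clone and the same RNA pairs. It gave −4.47, −4.65 and −4.98 with SAM in Cy3, against −5.29, −4.78 and −5.52 with SAM in Cy5. All 6 slides again lay on the seedling side, where 55.4% of this set's probes had the same sign throughout. They spanned little more than 1 log2 unit, and the orientations overlapped. The mean was −4.95 ± 0.40 (SD, n = 6, 95% interval −5.26 to −4.64, limma adjusted p = 2.55e-06), at rank 217 from the seedling end of 12027 probes. The dye term was 0.25 (adjusted p = 0.257). The scans gave −5.28 ± 0.29 (low), −5.08 ± 0.50 (medium) and −4.49 ± 0.48 (high), and the low scan was the farther from 0 on 6 of 6 slides, as in 7.87% of all probes of this set. The sets carried different clones and were centred separately here, so the 866-fold of one and the 30.9-fold of the other were not tested against each other. The other BMY1 probe on set 2 was not tested, being either without values or an identical spot left out.

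The plot of all probes shows how far from the bulk of each slide set the members lay.

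**Figure D4:**
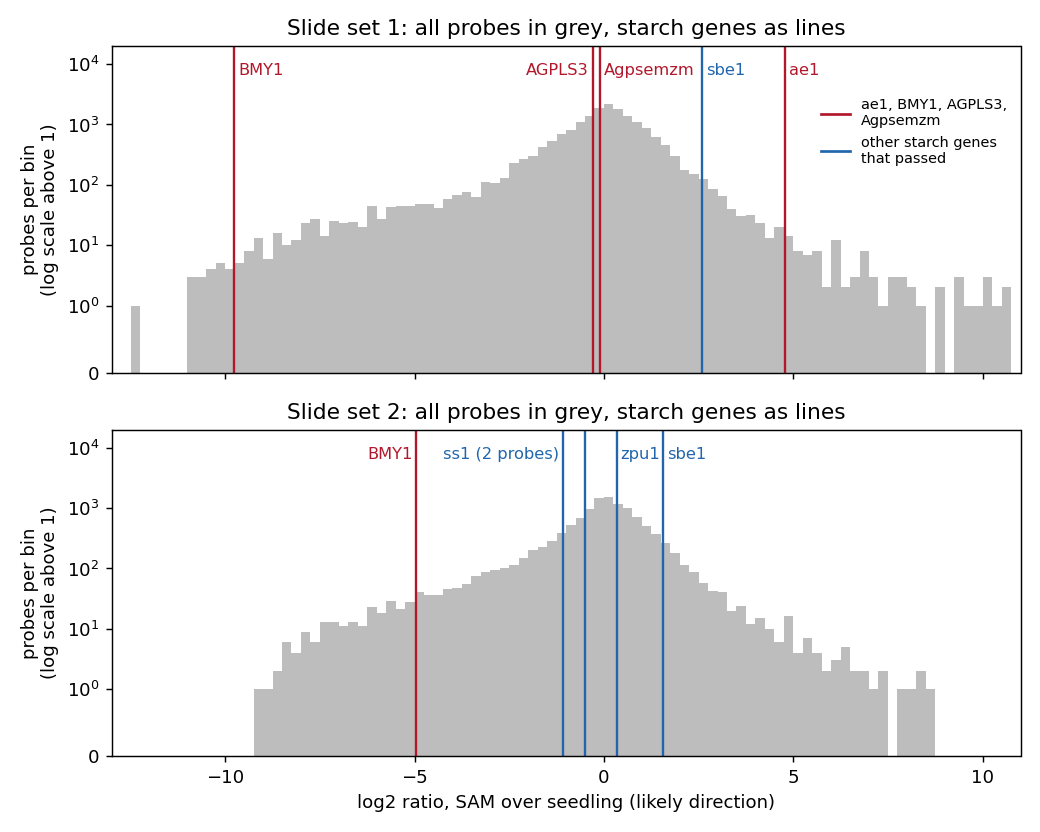
Number of probes (vertical axis, log scale above 1) per bin of 0.25 in the log2 ratio of SAM over seedling RNA (horizontal axis, likely direction), for each slide set. Red lines mark the means of ae1, BMY1, AGPLS3 and Agpsemzm and blue lines the other starch genes that passed, where the unlabelled blue line of set 2 is the other ss1 probe. BMY1 lies in the left tail of both sets and ae1 in the right tail of set 1, and AGPLS3 and Agpsemzm lie close to 0, just left of the tallest bin.

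A list of 37 symbols of starch genes was looked up in the same annotation. It found 6 further genes, 5 on set 1 and 3 on set 2. Of their 6 probes on set 1, 1 passed toward SAM, as did 31.5% of all probes, and the other 5 missed the threshold. By limma 0 passed toward seedling, against 31.0% of all probes, and 0 had an unadjusted p under 0.05 there. Of their 4 probes on set 2, 2 passed toward SAM, as did 33.4% of all probes, and 2 toward seedling, as did 31.2%. The median was −0.08 in each set, beside 0.04 and 0.03 for all probes of the sets.

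Of these genes sbe1, another starch branching enzyme gene (Entrez gene 542315, apart from ae1), was the one measured on both sets that passed on both. On set 1 it gave 1.28, 1.88 and 3.06 with SAM in Cy3, against 3.65, 2.09 and 3.58 with SAM in Cy5. On set 2 it gave 2.03, 2.67 and 1.85 with SAM in Cy3, against 1.87, 0.50 and 0.42 with SAM in Cy5. All 12 slides lay on the SAM side, with overlapping orientations in each set. The means were 2.59 ± 0.98 (limma adjusted p = 0.000318) and 1.56 ± 0.90 (limma adjusted p = 0.00133, SD, n = 6 each), 6.02-fold and 2.94-fold. As for ae1, the low scan of set 1 was the farther from 0 on 6 of 6 slides (4.42, against 1.51 in the high scan). On set 2 it was the farther on 4 of 6 slides. The scans there gave 2.36 ± 1.94 (low, with replicate 3 at 5.38), 1.26 ± 0.69 (medium) and 1.05 ± 0.69 (high). Whether a channel of sbe1 was near its lowest readable value was not tested. On set 2 the call was lost on Cy5 slides alone (0.93, adjusted p = 0.0865). ae1 and sbe1 on set 1 were thus both on the SAM side, and no test of the difference between the genes was made, since ratios of different clones were not compared.

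The other listed genes differed in their calls. Those of ADP-glucose supply, bt2 (an endosperm small subunit of ADP-glucose pyrophosphorylase) at −0.12 ± 0.41 and bt1 (an ADP-glucose transporter of the amyloplast) at −0.50 ± 1.13, did not pass (limma adjusted p = 0.516 and 0.306). Of the 18 bt1 scans 11 were at the most frequent value of their scan, which leaves little of its ratio measured. The waxy gene wx1, a granule-bound starch synthase that makes amylose, had 2 probes at −0.05 ± 1.35 and −0.34 ± 1.13 (limma adjusted p = 0.932 and 0.427), and 3 of the 18 scans of the first were at that value. The starch synthase gene ss1 had 2 probes on set 2, both on the seedling side on 6 of 6 slides, at −1.08 ± 0.30 (limma adjusted p = 0.000201) and −0.50 ± 0.36 (adjusted p = 0.00186). The second of these did not pass on Cy5 slides alone (−0.18, adjusted p = 0.253). The debranching enzyme gene zpu1 (a pullulanase) lay at 0.42 ± 0.67 on set 1 (adjusted p = 0.181) and at 0.34 ± 0.16 on set 2 (limma adjusted p = 0.0162), a call that was lost in 7 of 20 alternatives. The plot by step of the pathway gives these means together.

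**Figure D5:**
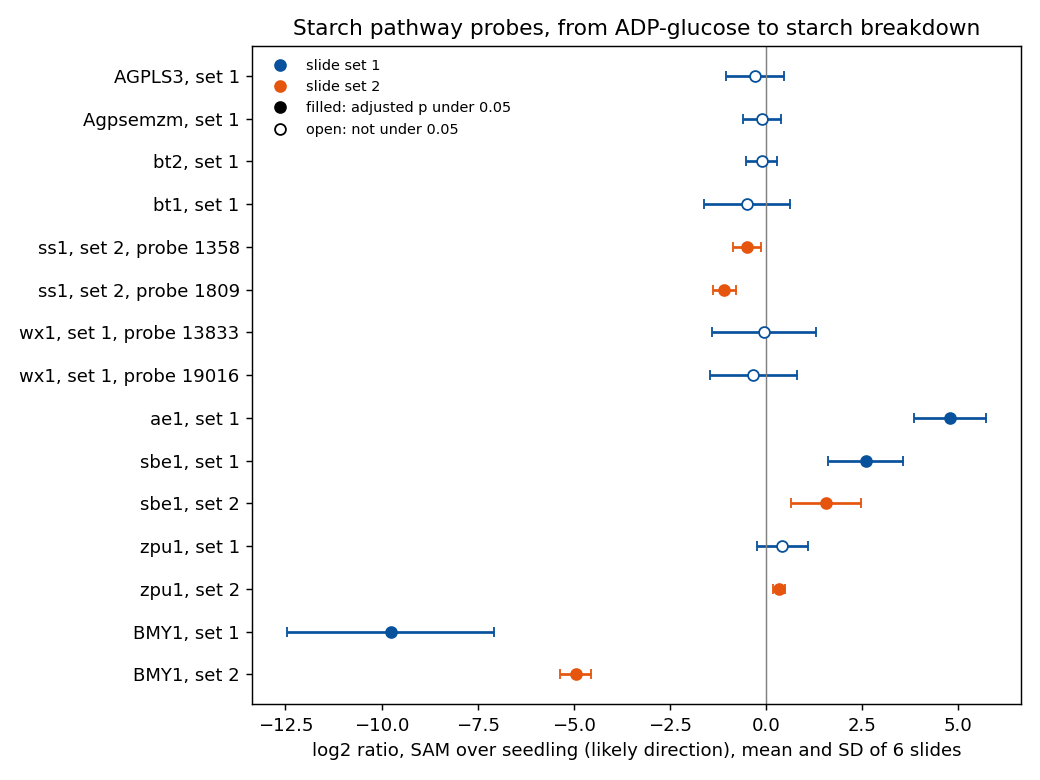
Mean log2 ratio of SAM over seedling RNA (horizontal axis, likely direction) with the SD of 6 slides, for probes of starch genes ordered down the page by step: ADP-glucose supply, starch synthases, branching, debranching and breakdown. Blue is slide set 1, orange slide set 2, and filled points passed at an adjusted p under 0.05. The branching enzyme genes ae1 and sbe1 lie to the right and the beta-amylase gene BMY1 far to the left. Supply genes and wx1 lie near 0 or just below it, and the ss1 probes passed at −1.08 and −0.50.

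The named genes whose 6 slide values lay closest to those of a member were found by root mean square distance, over 581 other genes on set 1 and 454 on set 2. Nearest to ae1 were tacs1 (distance 1.36 on the log2 scale), zr1 (1.47) and LOC542345 (1.95), at mean ratios of 4.37, 4.64 and 3.17. Nearest to BMY1 on set 1 were psad1 (1.83) and psan1 (1.95), both photosystem I subunits, and LOC100125656 (1.91). On set 2 they were TPT (0.37), inra1(tmp) (0.45) and LOC542000 (0.49), at mean ratios of −4.88, −5.06 and −4.95. AGPLS3 lay nearest to p5cr (0.25), rop1 (0.28) and LOC606477 (0.30), and Agpsemzm to LOC606466 (0.19), fdx3 (0.27) and aic1 (0.32). LOC542737 as a mean of probes lay nearest to elfa5 (0.26), rpl17 (0.33) and nfd110 (0.35). The distances are descriptions of these slides, with no test.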

How the data were processed

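The deposited values were read as natural log ratios of the channels, which the authors had already turned to run one way over the dye swap. The base was taken from the values: spot pairs lay a natural log of a whole number apart in 106 of 10805 cases (2.16 by chance, tolerance 0.0001), against 1 of 17466 for log2. Per the labels' protocols, about 10 ng of RNA was amplified by T7 polymerase, 2 µg of amplified RNA was labelled, and odd and even replicates had opposite dyes. The sources used here do not give the scanner software, background handling or normalization, and no intensities were used.

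Values were converted to log2, centred on each scan's median and averaged over 3 scans per slide. On set 1, 898 of 19200 spots held no value. On set 2, 2001 of 14080 held none and 52 identical spots were left out. A mean and a dye term were fitted to the 6 slides of a set by limma 3.58.1 (R 4.3.3, lmFit and eBayes), with a threshold of 0.05 after Benjamini-Hochberg adjustment. SDs are over slides. The number of slides limits the precision, with a median standard error of 0.16 on set 1 and 0.12 on set 2. Plots used Python 3.11.15, pandas 2.3.3, numpy 2.4.6 and matplotlib 3.10.9. The fit was tested on simulated data.

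Probe names came from the platform annotation, with symbols from RefSeq genes (assembly Zm-B73-REFERENCE-NAM-5.0). Of the tested probes 1787 on set 1 and 753 on set 2 had 1 named gene (582 and 455 genes), and 23 probes of set 1 with several genes were not named. Genes named were the members, the other starch genes, the direction lists and the 3 genes nearest to each member. Members and lists were chosen with earlier results of these data known. Starch genes were matched by symbol only, since no gene titles were at hand. Alternatives were no centring, scaled slides, each scan alone, no dye term, robust eBayes, values in all scans, a 2-fold limit, gene means, log2 as the deposited base, each dye orientation alone and each replicate left out. The median of the 3 scans was added after seeing the data.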

Additional observations from a re-analysis of the deposited data

Results flagged for a closer look

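The ratio differed with the dye orientation beyond the threshold (limma, adjusted over all probes of the set) in 3 of the 13 member probes on slide set 1, where 12.7% of all probes did. For LOC542737 probe 2370 the dye term was 2.22, with a mean of 0.77 for SAM in Cy3 and −3.66 for SAM in Cy5. For LOC542737 probe 7422 it was 1.32, with means of 1.64 for SAM in Cy3 and −0.998 for SAM in Cy5. For AGPLS3 it was −0.68, with means of −0.97 for SAM in Cy3 and 0.39 for SAM in Cy5. In these 3 probes the orientation means lay on opposite sides of 0. For probe 7422 the slide of replicate 4, with SAM in Cy5, lay at 0.20, on the side of the Cy3 slides.

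The sucrose synthase gene sus1, which shares the symbol ss2 with a starch synthase and was found by that name only, was not counted among the starch genes. Its 7 probes on set 1 and 2 on set 2 all passed on the seedling side, as did 31.0% and 31.2% of all probes. In its probe 6029 the dye term was 0.69, with means of −2.43 for SAM in Cy3 and −3.81 for SAM in Cy5. In its probe 12044 replicate 4, at −3.54, lay apart from the other 5 slides, which held values between −2.92 and −2.65. It was the 1 probe of 33 examined with a slide this far apart, and chance alone marks about 1 group in 20.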

How the results depend on the processing

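ae1 stayed past the threshold on the SAM side in each alternative run (3.31 to 7.09, adjusted p 1.95e-05 to 0.00178), and BMY1 on the seedling side (−11.50 to −6.76 on set 1 and −5.28 to −3.43 on set 2). So did sbe1 on set 1 (1.51 to 4.42). The values 3.31, −6.76 and −3.43 came from reading the deposited values as log2, which only rescales the ratios. Among the other settings, ae1 was lowest at 3.56 in the high scan. BMY1 came closest to 0 at −8.05 on Cy3 slides alone of set 1 and at −4.49 in the high scan of set 2. Of all 502 alternative ratios on set 1, 456 kept their side of 0 and of the threshold, 14 lost a call, 12 gained one and 20 changed sign. On set 2, 126 of 136 kept both and 10 lost a call. These totals cover the sus1 probes too, 7 on set 1 and 2 on set 2, each of which kept both in all 19 alternatives. The totals also include alternatives that could not change a side or a call. Reading the deposited values as log2 only rescaled each ratio, and asking for values in all scans left each ratio as it was. Sign changes were found in probes that did not pass, and the cause was not tested. On Cy3 slides alone LOC542737 probe 2370 lay at 0.77. On Cy5 slides alone LOC542737 probes 2498, 7422, 12434 and 12526 lay at −0.10, −0.998, −0.022 and 0.19, AGPLS3 at 0.39, Agpsemzm at 0.15, bt2 at 0.14 and the wx1 probes 13833 and 19016 at 0.026 and 0.23. wx1 probe 13833 also lay at 0.54 in the medium scan, 0.050 in the high scan and 0.20 by the median of scans. With each replicate left out, ratios ran from −0.51 to 0.32 for wx1 probe 13833 (above 0 without replicate 3, 4 or 5), −0.58 to 0.0091 for wx1 probe 19016 (above 0 without replicate 3), −0.21 to 0.043 for LOC542737 probe 12526 and −0.19 to 0.0054 for bt2 (both above 0 without replicate 4), and −0.22 to 0.028 for Agpsemzm (above 0 without replicate 1). bt1 passed only without replicate 3 (−0.91, adjusted p = 0.0362).

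Member probes past the threshold on the seedling side of set 1 numbered 3 with scaled slides and 2 in the medium scan, the high scan, Cy3 slides alone and Cy5 slides alone, against 1. Those on the SAM side numbered 2 on Cy5 slides alone and 1 with a 2-fold limit, against 5. With each replicate left out they ran from 4 to 6 (SAM side) and 1 to 2 (seedling side, 2 without replicate 4). With a 2-fold limit 3060 probes of set 1 passed toward SAM and 3559 toward seedling, and 1737 and 2138 probes of set 2. No paired analysis was possible because each ratio already pairs the RNAs of 1 replicate on 1 slide, the dye orientations share no replicate number, and the 2 slide sets carry different clones. Whether a weak channel was near its floor in the large ratios was not tested.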
